A study of Mus musculus with 18 samples.

Results

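The Slc7 family holds membrane carriers of amino acids, and 10 of its genes, *Slc7a1* to *Slc7a8*, *Slc7a10* and *Slc7a11*, were followed here among the 51912 genes counted. They were selected by gene name, and the family was chosen because *Slc7a4* rose the most with ethanol in translating RNA among the genes that passed the threshold, had 5 CPM (counts scaled to library size) or more and did not overlap between groups. The ethanol values in that fraction are therefore given as a description, without a test. All 10 genes passed the filter of at least 10 read pairs over the 18 libraries.

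Primary astrocyte cultures were made from the cortex of newborn hemizygous offspring of C57BL/6J mice and the B6;FVB stock with the transgene Tg(Aldh1l1-EGFP/Rpl10a)JD130Htz, which carry an EGFP-tagged ribosomal protein L10a under the *Aldh1l1* promoter. All groups carried the transgene, were pooled from males and females, and were in serum-free medium for a day beforehand. Ethanol dishes received 50 mM ethanol for 24 h and control dishes medium alone. Translating RNA affinity purification, in which tagged ribosomes are pulled down with GFP antibodies, gave 6 control and 6 ethanol IP libraries, and total RNA of the same lysates gave 3 control and 3 ethanol input libraries, from the dishes of replicates 4 to 6. A replicate is a dish, so the tests measure the spread between dishes of cultured cells. The libraries held 74239854 to 132810705 read pairs on genes. All 10 astrocyte markers examined were detected in every group, with summed levels of 1167 to 1212 CPM in control and 1222 to 1247 CPM in ethanol input libraries, and of 1799 to 1880 CPM in control and 1926 to 2000 CPM in ethanol IP libraries. The part of this shift in the ethanol values of the members was not tested.

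Members of Slc7 fall into 2 branches. *Slc7a1*, *Slc7a2* and *Slc7a3* encode cationic amino acid transporters, which carry arginine, lysine and ornithine, and *Slc7a4* is related to them by sequence. The others encode light subunits, which reach the cell surface bound to a heavy chain, mostly 4F2hc, the product of *Slc3a2*. In astrocytes the light subunit xCT, encoded by *Slc7a11*, exchanges glutamate for cystine and so supplies cysteine for glutathione.

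*Slc7a11* is a known target of Atf4, a transcription factor induced by amino acid shortage. Its promoter is shown here because it is the best known regulatory region of the family, together with those of *Slc7a7* and *Slc7a8* for comparison. The windows are 300 bases around a RefSeq start site (GRCm38.p6), all on the minus strand, and run 5′ to 3′. Capitals mark the C/EBP-ATF response element, searched as TGATGNAA on both strands.

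*Slc7a11*, chr3:50443564-50443863: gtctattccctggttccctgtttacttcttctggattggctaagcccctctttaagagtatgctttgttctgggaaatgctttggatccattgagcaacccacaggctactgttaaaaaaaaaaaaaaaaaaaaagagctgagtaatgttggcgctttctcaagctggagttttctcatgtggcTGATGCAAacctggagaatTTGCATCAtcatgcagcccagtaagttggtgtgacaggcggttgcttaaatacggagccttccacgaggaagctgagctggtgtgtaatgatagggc

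*Slc7a7*, chr14:54417895-54418194: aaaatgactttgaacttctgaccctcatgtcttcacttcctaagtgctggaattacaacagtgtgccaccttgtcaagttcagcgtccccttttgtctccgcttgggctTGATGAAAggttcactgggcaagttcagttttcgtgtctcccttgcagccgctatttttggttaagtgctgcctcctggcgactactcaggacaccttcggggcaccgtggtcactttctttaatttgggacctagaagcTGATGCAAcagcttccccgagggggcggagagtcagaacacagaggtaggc

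*Slc7a8*, chr14:54781837-54782136: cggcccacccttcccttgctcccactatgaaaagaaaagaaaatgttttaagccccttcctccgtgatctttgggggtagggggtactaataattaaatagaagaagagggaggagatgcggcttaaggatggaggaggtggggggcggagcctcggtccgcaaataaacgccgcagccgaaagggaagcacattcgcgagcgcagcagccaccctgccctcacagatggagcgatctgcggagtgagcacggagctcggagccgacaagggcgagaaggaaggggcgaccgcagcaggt

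The *Slc7a11* window held 2 matches, at positions -66 and -47 from the start site, on opposite strands. The *Slc7a7* window shown also held 2, at -141 and -1, and the *Slc7a8* window none. *Slc7a7* has 5 windows, and this one was picked for its matches: another overlaps it and holds 1 of the same matches, at -243 from its own start site, and the other 3 hold none. Of 32851 windows of the same length, 3.97% held at least 1 match and 23 windows at least 2. Windows were found for 6 members (*Slc7a1*, *Slc7a6*, *Slc7a7*, *Slc7a8*, *Slc7a10* and *Slc7a11*), and 2 of the 6 held a match in any window, against 4.51% of 27025 genes. A match describes letters only and was not tested as a binding site.

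A cationic and a neutral carrier made up most of the family's RNA. Levels of different genes are compared as RPKM, CPM divided by the kilobases of merged exons. Over the 18 libraries *Slc7a2* (ENSMUSG00000031596) was the highest at 20.3 ± 3.03 RPKM (SD, n = 18), and *Slc7a5* (ENSMUSG00000040010), the large neutral amino acid carrier LAT1, followed at 12.2 ± 0.505 RPKM. *Slc7a2* held 43.7% and *Slc7a5* 26.6% of the summed RPKM of the 10 genes. *Slc7a6*, the light subunit y+LAT2, came next at 4.00 ± 0.442 RPKM. These 3 ranks did not overlap with their neighbours in any group.

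The next members lay close together. *Slc7a11* was at 2.59 ± 0.318 RPKM, *Slc7a1* at 2.20 ± 0.166 RPKM and *Slc7a8*, the neutral carrier LAT2, at 2.17 ± 0.227 RPKM, and their ranges overlapped over the 18 libraries. Within groups *Slc7a11* lay above both without overlap in input control, input ethanol and IP ethanol libraries, and overlapped with them in IP control libraries. *Slc7a7*, the light subunit y+LAT1, was at 1.42 ± 0.285 RPKM and *Slc7a4* at 1.24 ± 0.258 RPKM. *Slc7a7* lay above *Slc7a4* without overlap in input control, input ethanol and IP control libraries, whereas in IP ethanol libraries *Slc7a4* had the higher mean (1.48 against 1.22 RPKM) and their ranges overlapped. Counted on the annotated strand alone, *Slc7a7* was at 1.04 RPKM, below *Slc7a4* at 1.30, and *Slc7a11* at 2.16 RPKM, near *Slc7a1* at 2.19 and *Slc7a8* at 2.17. With the longest transcript in place of merged exons, *Slc7a11* was at 3.90 and *Slc7a1* at 3.53 RPKM.

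*Slc7a3* (0.0396 ± 0.0190 RPKM) and *Slc7a10*, the small neutral amino acid carrier Asc-1 (0.0346 ± 0.0190 RPKM), were near the limit of detection and overlapped. *Slc7a10* had 115 unstranded pairs over the 18 libraries. Counted by strand it had 94 pairs on its own strand (0.0281 RPKM) and 7117 on the opposite strand, where *Lrp3* shares 377 exon bases with it. *Slc7a10* had no read pair in 1 IP ethanol library. A count of 0 allows up to 3 pairs, which is 0.0228 to 0.0409 CPM depending on the library. Of the Slc7 genes outside the 10, *Slc7a12* had no pair in any library, *Slc7a9* and *Slc7a15* had group means of at most 0.00434 CPM, and *Slc7a13* and *Slc7a14* had group means of 0.0534 to 0.135 CPM.

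**Figure D1:**
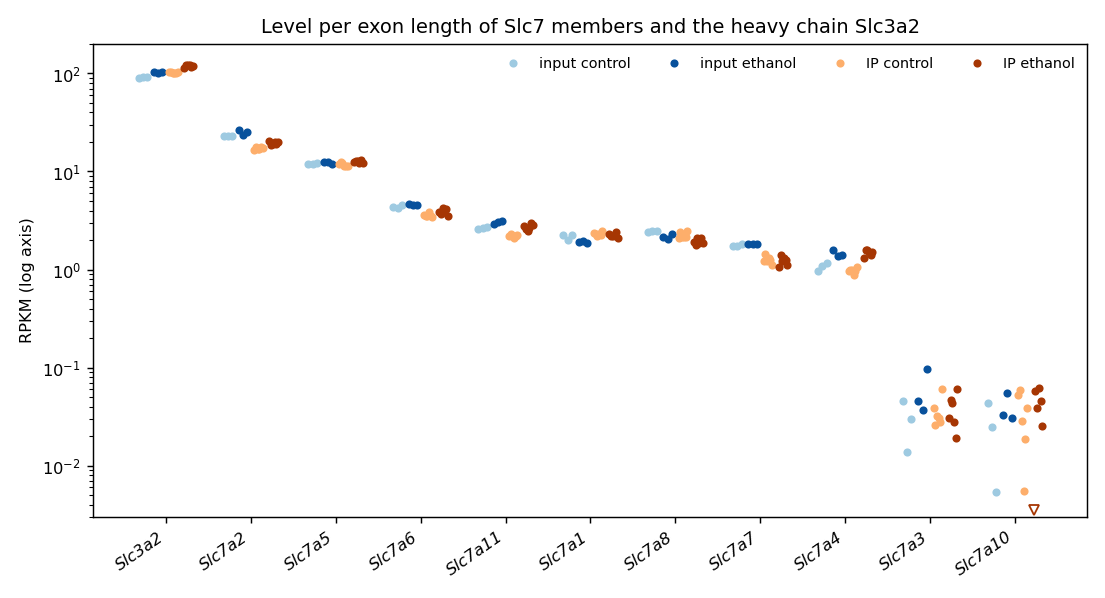
Level of each member and of the heavy chain *Slc3a2* in each of the 18 libraries, in RPKM on a log axis, coloured by group, with genes ordered by mean level; the open triangle marks a library with no read pair. *Slc7a2* and *Slc7a5* lead the family in every group, and *Slc7a3* and *Slc7a10* stay below 0.1 RPKM.

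The heavy chain was far more abundant than its partners. *Slc3a2* was at 91.3 ± 0.782 RPKM in input control libraries (n = 3) and 119 ± 3.66 RPKM in IP ethanol libraries (n = 6). Its ratio to the summed light subunits was 3.86 to 3.97 in input control, 4.23 to 4.32 in input ethanol, 4.62 to 5.03 in IP control and 4.93 to 5.57 in IP ethanol libraries. The ratio did not overlap between control and ethanol in input, while it overlapped in IP.

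The effect of ethanol on total RNA was tested in the 6 input libraries, which the choice of the family did not use, although they come from dishes that also gave IP libraries. Here *Slc7a4*, *Slc7a11* and *Slc7a2* rose and *Slc7a1* and *Slc7a8* fell. Of all 24495 genes tested, 15.0% passed an adjusted p of 0.05, 7.21% higher and 7.78% lower. Of the 10 members, 3 passed as higher and 2 as lower. The share called rises with abundance. Of the genes whose mean was 1 CPM or more, 26.4% passed, and of the 8 members above that level 5 did.

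*Slc7a4* (ENSMUSG00000022756, GRCm38 chromosome 16, 17572018 to 17583214, minus strand) was at 4.05, 4.47 and 4.83 CPM in control and at 6.57, 5.73 and 5.91 CPM in ethanol input libraries. Each ethanol library was above each control library. It rose by 0.44 on the log2 scale (SE 0.0908, adjusted p = 2.55e-05, edgeR), the largest among the members above 1 CPM.

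*Slc7a11* (ENSMUSG00000027737, chromosome 3, 49892526 to 50443614, minus strand) was at 35.7, 37.1 and 37.5 CPM in control and at 40.9, 42.3 and 43.1 CPM in ethanol input libraries, with no overlap. On the log2 scale it rose by 0.19 (SE 0.0366, adjusted p = 4.95e-06, edgeR). The deposited table counts both strands, and 16.5% of the pairs on *Slc7a11* lay on the strand opposite to the gene. Counted on its own strand alone, it rose by 0.27 (SE 0.0391, adjusted p = 8.01e-10, edgeR). Own-strand levels went from 29.9 to 31.7 CPM in control to 35.9 to 38.3 CPM in ethanol input libraries, whereas opposite-strand levels were 5.81 to 6.87 and 4.84 to 5.73 CPM.

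*Slc7a2*, the most abundant member, was at 211, 211 and 210 CPM in control and at 242, 214 and 231 CPM in ethanol input libraries. The ethanol libraries spread more widely but all lay above the controls. The difference was 0.12 on the log2 scale (SE 0.0231, adjusted p = 1.43e-05, edgeR).

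*Slc7a1* (ENSMUSG00000041313), the broadly expressed arginine carrier CAT-1, moved the other way, from 25.7, 23.1 and 25.9 CPM in control to 22.0, 22.5 and 21.7 CPM in ethanol input libraries. It fell by 0.18 on the log2 scale (SE 0.0456, adjusted p = 0.00123, edgeR), with no overlap. *Slc7a8* (ENSMUSG00000022180) was at 12.2, 12.4 and 12.4 CPM in control and at 10.9, 10.2 and 11.7 CPM in ethanol input libraries. It also fell by 0.18 (SE 0.0628, adjusted p = 0.0330, edgeR). The *Slc7a8* call is the least firm of the 5, since it was lost with DESeq2 (adjusted p = 0.0570) and on leaving out any of the input libraries other than ethanol replicate 6 (adjusted p = 0.0584 without control 4, 0.0967 without control 5, 0.0914 without control 6, 0.0817 without ethanol 4 and 0.243 without ethanol 5).

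The other members did not pass. On the log2 scale *Slc7a5* differed by 0.02 (SE 0.0347, adjusted p = 0.761, edgeR). *Slc7a6* had 0.07 (SE 0.0484, adjusted p = 0.443) and *Slc7a7* 0.05 (SE 0.0856, adjusted p = 0.791). *Slc7a3* had 1.0 (SE 0.503, adjusted p = 0.199) and *Slc7a10* 0.68 (SE 0.819, adjusted p = 0.693), both at levels too low for a firm value. The groups did not overlap for 6 of the 10 members, against 27.1% of all genes.

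*Slc3a2* (ENSMUSG00000010095), the heavy chain, was at 319, 325 and 323 CPM in control and at 364, 358 and 362 CPM in ethanol input libraries. The rise was 0.16 on the log2 scale (SE 0.0228, adjusted p = 1.18e-10, edgeR). *Slc3a1*, the heavy chain rBAT, was at a mean of 0.299 CPM in control and 0.402 CPM in ethanol and did not pass (adjusted p = 0.49). *Slc7a13* and *Slc7a14* did not pass either (adjusted p = 0.633 and 0.902).

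In bulk RNA, fewer cells of a type and less RNA per cell cannot be told apart. Summed mural and fibroblast markers were 1498 to 1574 CPM in control and 1105 to 1166 CPM in ethanol input libraries, and none of the 7 was at 0. The drop in the sum was that of *Acta2*, smooth muscle actin, from a mean of 1186 to 790 CPM, the single one of the 7 that passed. *Pdgfrb* was at 137 and 135 CPM, *Col1a1* at 143 and 143 CPM and *Dcn* at 22.2 and 23.9 CPM. Microglia markers summed to 71.9 to 74.9 and 73.9 to 86.0 CPM, with 2 of 9 passing as higher. Neuron markers summed to 112 to 115 CPM in control and 103 to 109 CPM in ethanol, with 1 of 8 higher and 1 lower. Of the astrocyte markers 4 of 10 passed as higher and 3 as lower, of the oligodendrocyte lineage markers 2 of 8 as higher and of the endothelial markers 1 of 6 as lower. The part of these cells in the ethanol values was not tested.

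**Figure D2:**
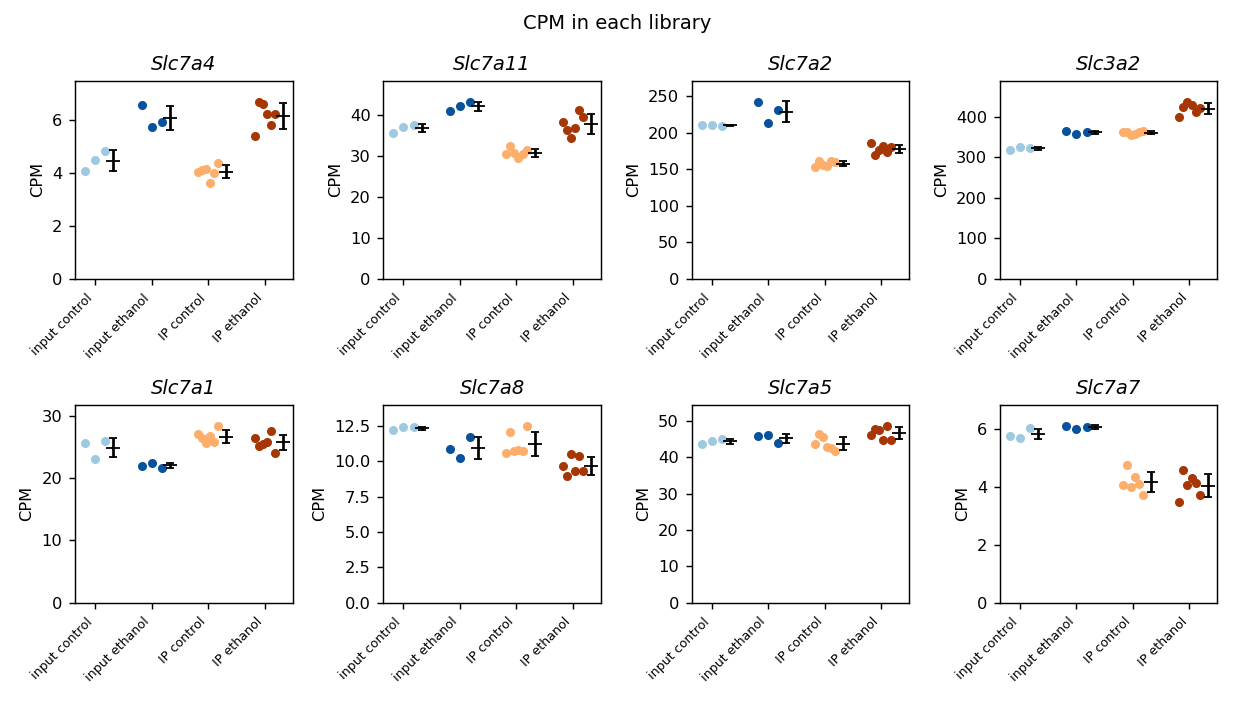
CPM in each library for 7 members and *Slc3a2*, by group, with the mean and SD as a black bar beside the points; axes start at 0. *Slc7a4* lies at 3.63 to 4.83 CPM in control and 5.4 to 6.66 CPM in ethanol libraries, and *Slc7a7* is lower in IP than in input libraries.

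In IP, where the family was chosen, the values are a description. *Slc7a4* had a lowest, median and highest level of 3.63, 4.06 and 4.35 CPM in control and 5.4, 6.22 and 6.66 CPM in ethanol libraries. Its log2 fold change was 0.61 (SE 0.0637), and the next gene, with the same minimum of 5 CPM and groups that did not overlap, was at 0.60. *Slc7a4* met that minimum through its ethanol libraries, since its mean was 4.04 CPM in control and 6.15 CPM in ethanol libraries. *Slc7a11* went from 29.4, 30.6 and 32.3 CPM to 34.4, 37.6 and 41.2 CPM, a log2 fold change of 0.30 (SE 0.0350), or 0.42 (SE 0.0427) on its own strand. *Slc7a2* went from 16.7 to 17.7 RPKM (mean 17.3) to 18.6 to 20.3 RPKM (mean 19.5), a log2 fold change of 0.18 (SE 0.0244).

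*Slc7a8* was lower with ethanol in IP as well, with a log2 fold change of -0.20 (SE 0.050), from 10.6, 10.8 and 12.5 CPM to 8.95, 9.48 and 10.5 CPM. *Slc7a1* was at -0.04 (SE 0.0355) and its groups overlapped. *Slc7a5* was at 0.10 (SE 0.0308), *Slc7a6* at 0.13 (SE 0.0423) and *Slc7a7* at -0.03 (SE 0.0714). *Slc3a2* went from 356, 362 and 365 CPM to 400, 424 and 436 CPM, a log2 fold change of 0.23 (SE 0.0229). The values that chose the family put 5 members past the threshold as higher and 1 as lower, with 21.4% of all genes past it, 11.9% higher and 9.48% lower, and nothing is read from these counts. Without IP control replicate 6 the 5 became 3.

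**Figure D3:**
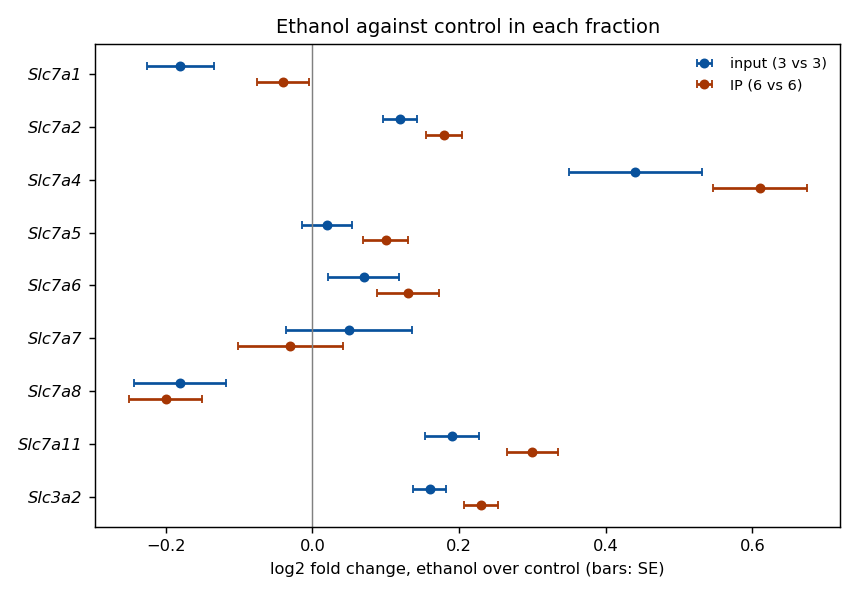
Log2 fold change of ethanol over control with its SE in input and in IP libraries, for the 8 members above 1 CPM and *Slc3a2*. *Slc7a4* is at 0.44 in input and 0.61 in IP, and *Slc7a8* is below 0 in both.

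The ethanol difference between fractions, fitted in the 12 libraries whose dishes gave both fractions and blocked by dish, contains the IP values and is given without a test. As IP minus input on the log2 scale, it was 0.18 (SE 0.124) for *Slc7a4*, 0.19 (SE 0.0554) for *Slc7a11* and 0.13 (SE 0.0639) for *Slc7a1*. It was 0.11 (SE 0.0518) for *Slc7a5*, 0.07 (SE 0.0355) for *Slc7a2* and 0.06 (SE 0.0715) for *Slc7a6*. *Slc7a7* was at -0.03 (SE 0.126) and *Slc7a8* at -0.03 (SE 0.0886). On leaving out single dishes, *Slc7a6* ran from -0.00 to 0.12, *Slc7a7* from -0.11 to 0.03 and *Slc7a8* from -0.13 to 0.05.

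The comparison of IP with input asks which members are more or less represented on tagged astrocyte ribosomes than in total RNA. It was tested over the 18 libraries with a term for treatment. The model held no term for dish, although each input library shares its dish with an IP library. A run with dish as a block is given in the last section. Of all genes 51.0% passed, 25.2% higher and 25.8% lower in IP. Of the members 1 was higher in IP and 5 were lower, and 4 did not pass. Among genes whose mean was 1 CPM or more 76.3% passed, and 6 of the 8 members at that level did, a share near that background.

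*Slc7a7* (ENSMUSG00000000958, chromosome 14, 54369442 to 54417780, minus strand) was lower in IP, at 5.69 to 6.11 CPM in input and 3.47 to 4.75 CPM in IP libraries, with no overlap. It fell by 0.53 on the log2 scale (SE 0.0558, adjusted p = 2.09e-13, edgeR). However, *Oxa1l* on the opposite strand shares 232 exon bases with it. Counted by strand, the 18 libraries held 5397 pairs on the strand of *Slc7a7* and 5033 on the opposite strand, and the unstranded count used for this value held 7364. On its own strand *Slc7a7* was at 4.85 to 5.62 CPM in input and 2.21 to 2.85 CPM in IP libraries, and it fell by 1.06 (SE 0.0620, adjusted p = 1.02e-24, edgeR). The opposite-strand level was 2.58 to 3.06 CPM in input and 3.0 to 4.02 CPM in IP libraries.

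Microglia markers were lower in IP as well. Of 9 measured, 8 passed as lower with a median log2 fold change of -2.44, and their summed level was 71.9 to 86.0 CPM in input and 12.6 to 16.3 CPM in IP libraries, with none at 0. Of the other lists, 8 of 10 astrocyte markers were higher and 1 lower, 3 of 7 mural and fibroblast markers were higher and 4 lower, 2 of 8 oligodendrocyte lineage markers were higher and 5 lower, 1 of 6 endothelial markers was higher and 4 lower, and 4 of 8 neuron markers were higher and 2 lower. The part of these cells in the values of the members in IP was not tested.

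*Slc7a2* fell by 0.39 in IP (SE 0.0205, adjusted p = 1.86e-27, edgeR), from 23.0 to 26.5 RPKM in input to 16.7 to 20.3 RPKM in IP libraries, and was lower in IP in 6 of 6 dishes with both fractions. *Slc7a6* (ENSMUSG00000031904) fell by 0.27 (SE 0.0338, adjusted p = 9.33e-11) and *Slc7a11* by 0.21 (SE 0.0284, adjusted p = 2.69e-09), each lower in IP in all 6 dishes. *Slc7a8* fell by 0.15 (SE 0.0414, adjusted p = 0.00128) and was lower in 4 of 6 dishes.

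*Slc7a1* was the member that was higher in IP, by 0.16 (SE 0.0313, adjusted p = 9.35e-06, edgeR), in 6 of 6 dishes. In control libraries alone it was at 0.09 (adjusted p = 0.0737) and in ethanol libraries alone at 0.22 (adjusted p = 2.75e-05). *Slc3a2* was also higher in IP, by 0.19 (SE 0.0185, adjusted p = 1.12e-14, edgeR). The other heavy chain, *Slc3a1*, was lower in IP, at -0.67 (SE 0.217, adjusted p = 0.00698, edgeR). Its means were 0.350 CPM in input and 0.219 CPM in IP libraries, from 9 to 42 pairs a library. *Prepl* on the opposite strand shares 601 exon bases with it. In control and ethanol libraries, its RPKM was 0.132 and 0.177 in input and 0.0886 and 0.105 in IP. On its own strand these were 0.222 and 0.252 in input and 0.158 and 0.197 in IP, a smaller relative drop. *Slc7a4* had -0.06 (SE 0.0555, adjusted p = 0.432) and *Slc7a5* 0.01 (SE 0.0252, adjusted p = 0.765).

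**Figure D4:**
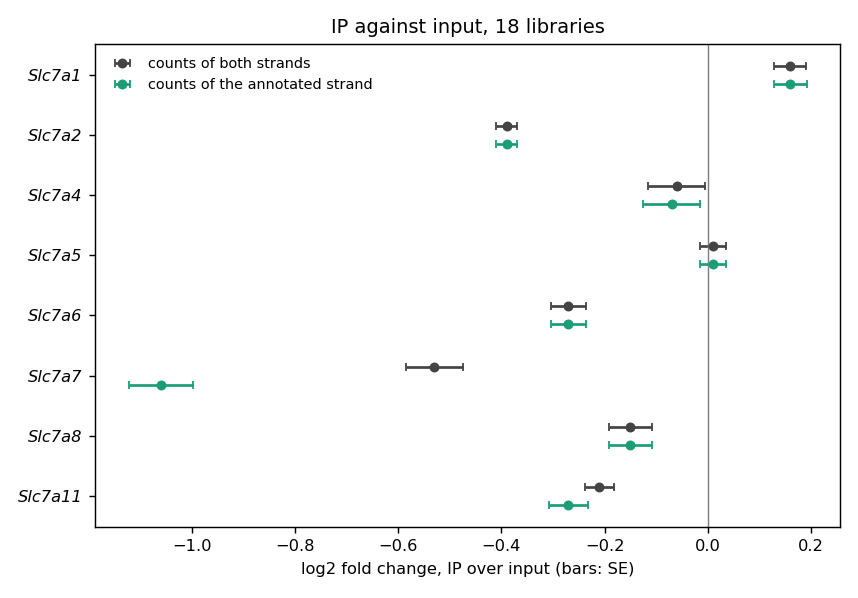
Log2 fold change of IP over input with its SE over the 18 libraries for the 8 members above 1 CPM, from counts of both strands and from counts of the annotated strand. The values coincide for most members, while *Slc7a7* goes from -0.53 to -1.06 and *Slc7a11* from -0.21 to -0.27.

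Of the pathways around the family, the carriers of other families were called in one direction in input. The share of all genes called there was 15.0%, or 26.4% of those whose mean was 1 CPM or more. Of 21 carriers tested, 9 passed, each of them higher with ethanol, with a median log2 fold change of 0.14 against -0.00 over all genes. The glutamate transporters *Slc1a2* and *Slc1a3*, both among the 9, are also on the astrocyte marker list. *Slc38a2*, the neutral amino acid carrier SNAT2, rose by 0.34 (SE 0.0285, adjusted p = 2.54e-30, edgeR). *Slc6a9*, the glycine transporter GlyT1, rose by 0.33 (SE 0.101, adjusted p = 0.0111), *Slc6a15*, a neutral amino acid carrier, by 0.25 (SE 0.0839, adjusted p = 0.0239) and *Slc38a3*, the glutamine carrier SNAT3, by 0.20 (SE 0.0380, adjusted p = 4.82e-06).

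Of 24 genes of Atf4 and the amino acid response, 10 rose and 2 fell, with a median of 0.04. Beside this, 15.0% of all genes were called, and 26.4% of those whose mean was 1 CPM or more. *Atf5*, a related transcription factor, rose by 0.37 (adjusted p = 3.10e-53, edgeR), *Trib3*, a pseudokinase, by 0.36 (adjusted p = 0.0129) and *Ddit3*, the transcription factor CHOP, by 0.25 (adjusted p = 5.35e-20). *Psat1*, an enzyme of serine synthesis, fell by 0.27 (adjusted p = 2.34e-10).

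Of 20 genes of glutathione synthesis and Nrf2 targets, 9 rose and 1 fell, beside the same 15.0% and 26.4%, with a median of 0.07. *Srxn1*, sulfiredoxin, rose by 0.33 (adjusted p = 1.48e-33, edgeR) and *Osgin1* by 0.27 (adjusted p = 4.19e-05). The subunits of glutamate-cysteine ligase, which makes the precursor of glutathione, rose by 0.23 for *Gclc* (adjusted p = 1.67e-15) and 0.11 for *Gclm* (adjusted p = 0.00129).

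Of 15 genes of arginine and polyamine metabolism, 1 rose and 2 fell, a share near the 15.0% of all genes, with a median of 0.01. *Odc1*, ornithine decarboxylase, rose by 0.11 (adjusted p = 1.04e-04, edgeR), while *Azin1*, the antizyme inhibitor, and *Srm*, spermidine synthase, each fell by 0.19 (adjusted p = 4.28e-12 and 6.36e-07).

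**Figure D5:**
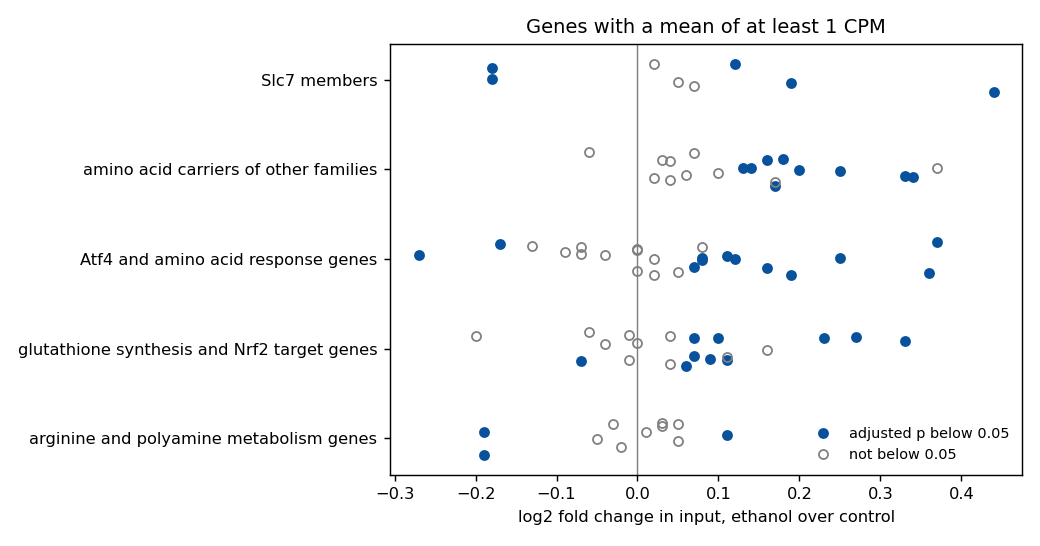
Log2 fold change of ethanol over control in input for the members and 4 gene lists, each point a gene whose mean was 1 CPM or more, filled where the adjusted p was below 0.05. No filled point of the carriers of other families lies below 0.

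Across the 18 libraries, the genes whose log2 CPM followed *Slc7a4* most closely among 11065 genes were *Glb1*, lysosomal beta-galactosidase (Pearson r = 0.953), *Herpud1*, of endoplasmic reticulum protein degradation (0.945), and *Fzd1*, a Wnt receptor (0.944). For *Slc7a11* they were *Lrig1* (0.963), *Sesn1*, a sestrin (0.942), and *Tshz1* (0.940). These are descriptions over libraries that share the treatment and the fraction.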

How the data were processed

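The members and gene lists were chosen with earlier results of these data known. The authors trimmed reads with Trimmomatic, aligned them with STAR to GRCm38 with Ensembl annotation and deposited raw read counts per gene, for each library and as a table of unstranded counts, which did not differ (0 differences). Pairs mapping to several places (mean 3.60%) were not counted, so near-identical copies are undercounted, and rows naming no gene held 16.6% on average and were left out. From the deposited counts, CPM (TMM factors), RPKM (merged exons of GENCODE M21) and log2 fold changes were computed here. Genes with at least 10 pairs over 18 libraries (24495) were tested with edgeR 4.0.16 (glmQLFit, robust, glmQLFTest) in R 4.3.3, with Benjamini-Hochberg adjustment over all of them and a threshold of 0.05. DESeq2 1.42.0, other scalings, filters, counts of the annotated strand and leaving out each library were alternatives. The tests were checked on simulated data. No 2 libraries of the same group were copies.

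The genes named were the members, the heavy chains, other Slc7 genes, up to 4 genes a list called in input with the largest change and at least 1 CPM, and the 3 genes most like *Slc7a4* and *Slc7a11* with at least 5 CPM. *Acta2* was named after its value was seen. Also named outside this rule were *Pdgfrb*, *Col1a1* and *Dcn*, set beside *Acta2*. So were *Slc1a2* and *Slc1a3*, shared with the astrocyte markers, and the genes that overlap members. Input and IP libraries of one treatment and number come from the same dish, and the correlation of their deviations was 0.0247 to 0.161. Floors cover counting error only, whereas each SE comes from the edgeR fit and includes the spread between libraries.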

Additional observations from a re-analysis of the deposited data

Results flagged for a closer look

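*Slc7a3* stood apart in IP control replicate 6, at 0.229 CPM against 0.0985 to 0.146 CPM in the other 5 control libraries. These are 17 read pairs against 8 to 12, near the limit of detection, and IP ethanol replicate 6 also held 17. The gap was 0.634 of the range of the group. Among 20 groups of IP libraries examined this was the single case, and chance gives about 1 in 20.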

How the results depend on the processing

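No member that passed the test in input or in IP against input changed direction under any alternative run. Members that did not pass, or were not tested, changed sign in places on leaving out single libraries. Ethanol in IP ran from -0.10 to 0.27 for *Slc7a3*, -0.08 to 0.01 for *Slc7a7* and -0.03 to 0.47 for *Slc7a10*. IP against input ran from -0.42 to 0.09 for *Slc7a3* and -0.03 to 0.37 for *Slc7a10*. With single dishes left out, the ethanol difference between fractions ran from -0.11 to 0.03 for *Slc7a7* and -0.13 to 0.05 for *Slc7a8*. For *Slc7a10* that difference ran from -0.73 to 1.64. *Slc7a4* in IP against input was at 0.02 in ethanol libraries alone. The count of members that fell with ethanol in input went from 2 to 1 with DESeq2, and was 1 to 2 on leaving out each library in turn. The cause was not tested. The count of members higher in IP than in input went from 1 to 0 in control libraries alone, which are fewer samples. Genes called numbered 2861 to 3164 in input, 4616 to 5244 in IP and 12069 to 12503 for IP against input on leaving out single libraries. With the replicate block 3829 genes were called in input and 5782 in IP, and in the 12 libraries with dish as replicate block 11659 for IP against input, with no change in member calls. In the labels the only link between dishes of the 2 treatments is the number, and whether they share a preparation is not stated. The correlation of deviations between dishes of the same number was 0.0266 to 0.0693 in input and -0.113 to 0.236 in IP. Depth limits *Slc7a3* and *Slc7a10* (115 pairs over the 18 libraries), and strand limits *Slc7a7*, *Slc7a10* and *Slc7a11*. Both limit the heavy chain *Slc3a1*.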
